A study of Homo sapiens with 9 samples.

Results

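Samples of one hepatoma line differ here by how their titles spell a drug. All come from PLC/PRF/5, an established human liver cancer line, and carry a stably expressed YES, a tyrosine kinase, either as wild type (Yes WT, 4 samples) or with the mutation T348I at the gatekeeper position of its drug pocket (Yes T348I, 5 samples). The compound label gives all 9 samples dasatinib at 100 nM. In the titles, however, 6 samples carry the full word dasatinib (3 WT and 3 T348I) and 3 carry the short form Dasa (1 WT and 2 T348I), each numbered from 1. The members of the comparison are the 3 Dasa samples, of 9 in all, set against the other 6 with genotype held constant. The labels do not say whether the spelling marks a day, a culture, a library run or nothing at all, so it is used as a name for 2 sets of libraries and no more. No untreated sample was analysed here. The labels name a stable line for each genotype and do not say whether it is a clone or a pool. Nothing states that samples were grown as separate cultures, so the p-values speak only of the spread among these libraries, possibly a technical one. WT Dasa is a single sample and is taken to vary like the other groups.

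Several cellular systems that recur below read out the state of a culture. Cholesterol synthesis is set by SREBP2, a membrane-bound transcription factor that is released to the nucleus when sterols are low and held back by INSIG1 when they are plentiful. Heat shock genes are switched on by HSF1 when unfolded protein accumulates, and their products (chaperones) refold it. The mitochondrial genome is transcribed from both of its strands as long precursors, which are cut into messenger, ribosomal and transfer RNAs, and most of the light-strand product is normally destroyed. Replication histone messages have no polyA tail, so a polyA library holds few of them, and long noncoding RNAs such as MALAT1 stay in the nucleus.

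Reads in genes ran from 10381142 to 15799059 per sample, and 21655 to 22922 genes had a read in the dasatinib samples against 23562 to 24445 in the Dasa samples. Pearson correlations of log2 expression across genes were 0.988 to 0.993 between samples of the same set and genotype, 0.967 to 0.972 between sets within a genotype and 0.963 to 0.977 between genotypes within a set. The hepatocyte markers ALB, AFP, TF, SERPINA1, APOA1, APOB, FGB and HNF4A were present, TTR stayed under 1 CPM in every sample (CPM, counts scaled to a common library depth), and the 9 markers summed to 6456 to 7508 CPM in the dasatinib samples and 5712 to 9457 CPM in the Dasa samples. Of 12 fibroblast and stellate markers, 9 were under 1 CPM throughout and ACTA2 was at 0. Their sum ran from 4.58 to 8.48 CPM in the dasatinib samples and from 9.56 to 11.6 CPM in the Dasa samples. Of 8 endothelial markers, 6 were under 1 CPM throughout and CLEC14A was at 0, with sums of 2.34 to 6.84 CPM against 4.37 to 10 CPM. Of 14 blood and immune markers, 13 were under 1 CPM and MS4A1, NKG7 and HBB were among those at 0. The exception, LYZ, which encodes lysozyme, made up nearly all of their sum of 1184 to 1410 CPM in the dasatinib samples and 799 to 954 CPM in the Dasa samples.

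The sets differed across most of the transcriptome. With genotype as a term, edgeR's quasi-likelihood test (Benjamini-Hochberg adjusted p under 0.05) called 9058 of 15495 genes, 58.5% of those tested, 4582 of them higher (29.6%) and 4476 lower (28.9%) in Dasa. These shares are the background for every gene list below, but they include pseudogenes and noncoding RNAs. Among 12589 protein-coding genes outside the mitochondrial genome and the histones, 26.0% were higher and 33.8% lower. In the highest of 4 equal groups of these by mean level, 24.4% were higher and 49.0% lower. A list of strongly expressed genes with about that share lower does not stand out. Most differences were small, and the large ones lay on one side. Of the called genes, 1113 were higher by at least 2-fold and 214 lower, and 176 were higher by at least 4-fold and 30 lower. Against a fold minimum of 1.5 in place of no minimum, 1258 genes passed (8.12%), 1054 higher and 204 lower. The median log2 difference over all genes tested was -0.0048.

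The difference could be read separately in each genotype, since the WT contrast and the T348I contrast share no sample. Within WT, 7035 genes passed (45.4%), and within T348I 8493 (54.8%). Passing in both with the same sign were 5466 genes (35.3%), 2708 higher (17.5%) and 2758 lower (17.8%), while 121 passed in both with opposite signs. For 8324 genes (53.7%) the 2 sets did not overlap in either genotype. This share is the background for each remark below that a gene did not overlap. Genes named for the largest differences were chosen among those without overlap, so for them the remark follows from the choice. Across genes the 2 log2 differences had a Pearson correlation of 0.744, given as a description, since genes are not independent. The interaction of set and genotype was called for 1059 genes (6.83%), 367 of them among those that passed in both genotypes.

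**Figure D1:**
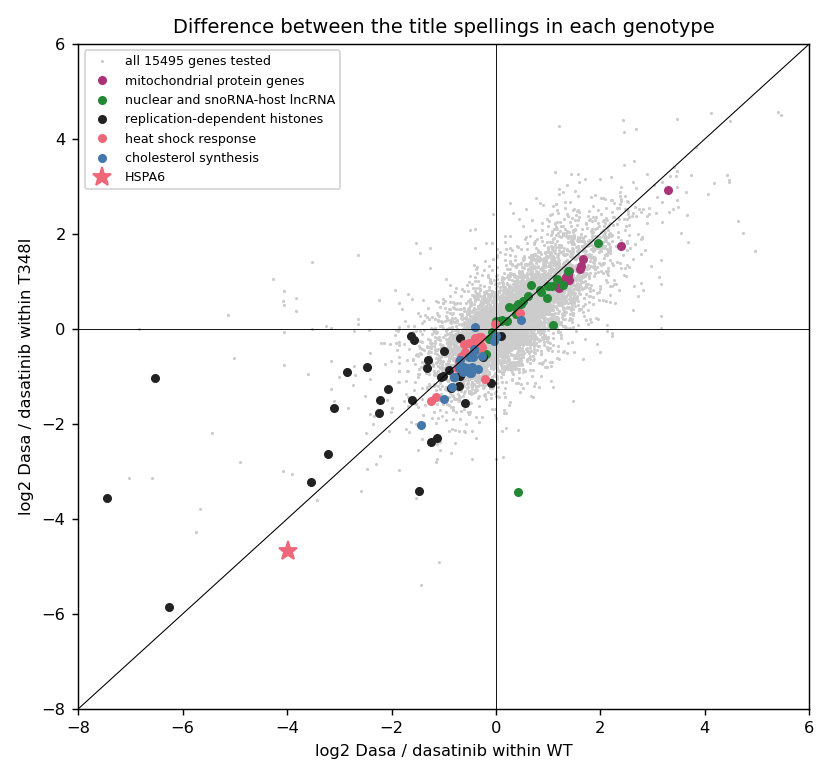
Each point is one of 15495 tested genes, with the log2 difference of Dasa against dasatinib within WT on the x axis and within T348I on the y axis, and colours mark the gene classes named in the key. Most points follow the diagonal (Pearson r 0.744 across genes), with the mitochondrial protein genes at the upper right and replication histones at the lower left.

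Read classes separated the sets without overlap in 8 of 10 measures taken per library. The 13 protein genes of the mitochondrial genome took 5.60% to 7.38% of gene reads in the dasatinib samples and 13.2% to 14.5% in the Dasa samples. Reads that mapped to several places fell from a range of 10.9% to 16.9% of all reads to 7.14% to 7.99%, while reads in no annotated feature rose from 5.00% to 5.80% up to 9.10% to 9.78% and unmapped reads from 3.05% to 4.69% up to 5.16% to 5.85%. Long noncoding RNA took 0.899% to 0.977% of gene reads against 1.21% to 1.29%, processed pseudogenes 0.148% to 0.181% against 0.235% to 0.284%, and replication histones 0.00596% to 0.00866% against 0.00308% to 0.00352%. Each of these, and the mitochondrial light-strand share given below, had an exact two-sided permutation p of 0.025, the smallest that 40 splits within genotype allow, and an adjusted p of 0.0313 over the 10 measures. Ambiguous reads overlapped, at 2.65% to 2.99% against 2.79% to 2.89% (exact p = 0.825, adjusted 0.825). Antisense reads outside the mitochondrial genome also overlapped, at 5.77% to 6.14% of sense reads against 6.10% to 6.42% (exact p = 0.05, adjusted 0.0556).

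**Figure D2:**
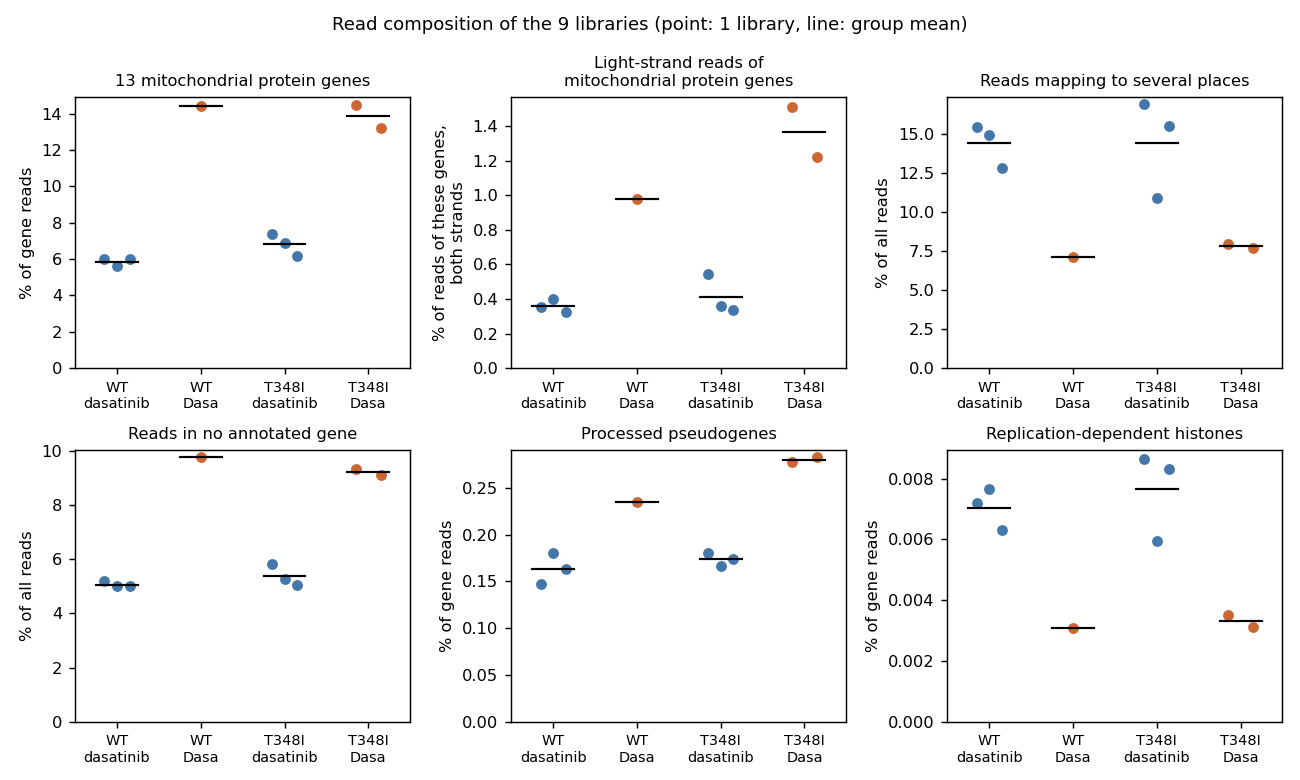
Each panel plots one read class per library in percent (y axis, from 0), with the 4 groups on the x axis and one point per sample. The Dasa points lie apart from the dasatinib points of both genotypes in the share of mitochondrial reads, 13.2% to 14.5% against 5.60% to 7.38%.

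Transcripts of the mitochondrial genome rose together in both genotypes. All 13 protein genes were higher in Dasa, against 29.6% of all genes tested, with a median log2 difference of 1.23. MT-ND4, a complex I subunit, had 8864, 7962 and 8730 CPM in the WT dasatinib samples, 26900 CPM in WT Dasa, 11800, 10850 and 9346 CPM in the T348I dasatinib samples and 31650 and 27680 CPM in the T348I Dasa samples. Every Dasa sample lay above every dasatinib sample, and the log2 difference was 1.55 ± 0.07 (SE, adjusted p = 9.14e-13). MT-ND6 (chrM:14149-14673, GRCh38) is the one protein gene encoded so that its message comes from the light strand, and it had 26.3, 23.5 and 26.3 CPM in the WT dasatinib samples, 250.3 CPM in WT Dasa, 60.5, 35.9 and 31 CPM in the T348I dasatinib samples and 354 and 276 CPM in the T348I Dasa samples. Its log2 difference, 3.06 ± 0.12 (SE, adjusted p = 1.38e-13), was the largest of the 13, again with no overlap. When strand was ignored, in the counts of column 2, it was 1.55, because heavy-strand RNA over the same bases is then counted with it. MT-CO1, a subunit of the terminal oxidase that was chosen after its values were seen, rose from 12860, 11630 and 12620 CPM to 28550 CPM in WT and from 15500, 14910 and 13060 CPM to 27530 and 25220 CPM in T348I, with a log2 difference of 1.0 ± 0.07 (SE, adjusted p = 6.03e-10).

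The 2 mitochondrial strands did not rise to the same extent. Since the library keeps strand, each gene's reads could be divided into those of the heavy-strand transcript and those of the light-strand transcript, in CPM of all gene reads. Over the 13 protein genes the heavy-strand reads were 1.88 to 3.78 times higher in Dasa, with a median of 2.22, and the light-strand reads 4.39 to 10.9 times, with a median of 6.16. Over MT-CYB, cytochrome b, chosen after its values were seen, light-strand reads lay between 21.5 and 45.5 CPM in the dasatinib samples and between 154 and 316 CPM in the Dasa samples, an 8.08-fold ratio of means, against 2.23-fold for its heavy-strand reads. The light strand nevertheless stayed a small part of the total, 0.323% to 0.542% of reads on both strands of the 13 genes in the dasatinib samples and 0.981% to 1.51% in the Dasa samples.

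**Figure D3:**
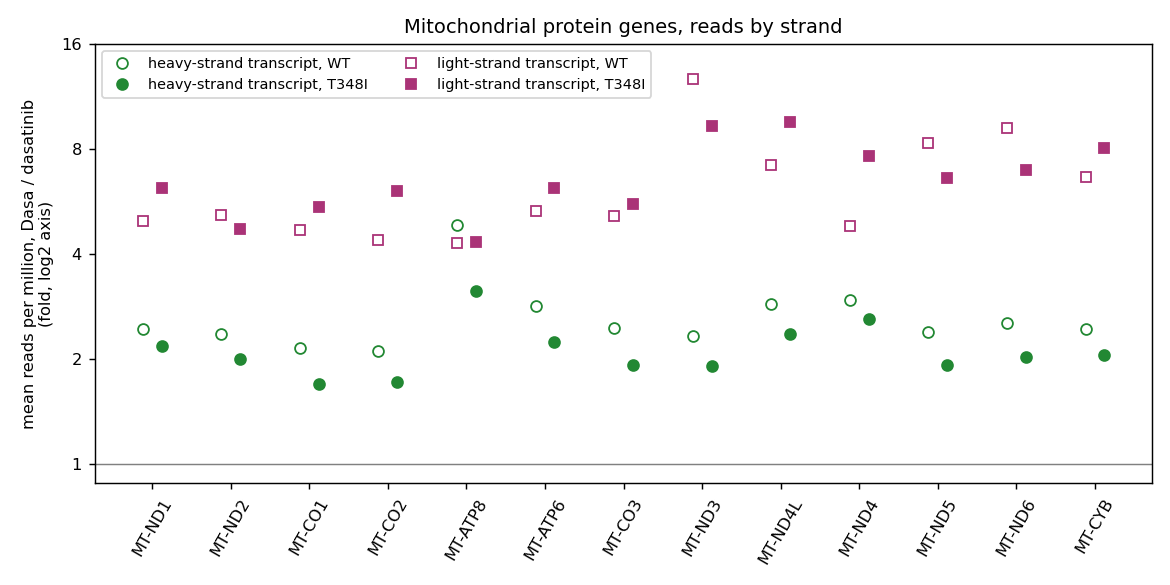
The ratio of mean CPM, Dasa over dasatinib (y axis, log scale), is drawn for each of the 13 mitochondrial protein genes (x axis). Separate markers show the heavy-strand and the light-strand transcript, each within WT and within T348I. Light-strand ratios lie above heavy-strand ratios in each gene and genotype except MT-ATP8 in WT (4.30 against 4.86). With genotypes pooled, which is not drawn, the light-strand ratios were 4.39 to 10.9 and the heavy-strand ratios 1.88 to 3.78.

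The other mitochondrial RNAs did not move as one group. The 9 transfer RNA genes tested were all higher, with a median log2 difference of 2.17. The small ribosomal RNA MT-RNR1 was lower, with 3082, 2671 and 2381 CPM in the WT dasatinib samples, 1483 CPM in WT Dasa, 3291, 2221 and 2885 CPM in the T348I dasatinib samples and 1661 and 1441 CPM in the T348I Dasa samples, a log2 difference of -0.86 ± 0.09 (SE, adjusted p = 2.25e-07). The large ribosomal RNA MT-RNR2, which lies next to it on the same precursor, was higher, from 15570, 14370 and 14720 CPM to 25070 CPM in WT and from 17330, 14670 and 14590 CPM to 21590 and 20090 CPM in T348I, a log2 difference of 0.55 ± 0.07 (SE, adjusted p = 1.64e-06). Neither overlapped between the sets, and both were chosen after their values were seen.

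Nuclear copies of mitochondrial genes, stretches of mitochondrial DNA that sit in chromosomes as pseudogenes, led the list of rises. All 21 tested were higher, with a median log2 difference of 3.03. MTCO3P12 (chr1:634376-634922) had 9.27, 19.5 and 14.5 CPM in the WT dasatinib samples, 155 CPM in WT Dasa, 28, 16.7 and 18.9 CPM in the T348I dasatinib samples and 172 and 154 CPM in the T348I Dasa samples, a log2 difference of 3.17 ± 0.12 (SE, adjusted p = 1.38e-13). The sets were far apart in both genotypes. MTND6P4, a copy of the light-strand gene MT-ND6 on chromosome 5, went from 2 to 6 reads per dasatinib sample to 65 to 114 per Dasa sample, with a log2 difference of 4.34 ± 0.27 (SE, adjusted p = 8.92e-11). These copies are nearly identical to the mitochondrial genes, reads that fit both count for neither, and a read with mismatches can be given to the wrong one, so their counts are uncertain as measures of nuclear transcription.

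The same uncertainty applies to the wider class of pseudogenes, which also rose. Of 659 processed pseudogenes (copies of messenger RNAs pasted back into the genome), 467 were higher and 30 lower, with a median log2 difference of 1.27, and of 292 unprocessed pseudogenes 138 were higher and 17 lower, with a median of 0.39. Among ribosomal protein genes, which have many processed copies, RPL26, a large-subunit ribosomal protein, had 19.3, 30.9 and 28 CPM in the WT dasatinib samples, 66.8 CPM in WT Dasa, 37.3, 29.5 and 31 CPM in the T348I dasatinib samples and 82.7 and 81 CPM in the T348I Dasa samples, a log2 difference of 1.35 ± 0.09 (SE, adjusted p = 1.17e-10), and RPS10, a small-subunit protein, rose by 1.96 ± 0.18 on the log2 scale (SE, adjusted p = 1.67e-08). These were the highest values of lists that were otherwise divided: of 44 large-subunit proteins tested 14 were higher and 15 lower (median 0.03), and of 31 small-subunit proteins 12 were higher and 8 lower (median 0.05). Multimapped reads, which no gene receives, fell in the same libraries, and their part in these rises was not tested.

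Long noncoding RNAs were shifted upward, with 543 of 1648 higher and 126 lower, and a median log2 difference of 0.22. Among 27 named nuclear and snoRNA-host noncoding RNAs, 19 were higher and 2 lower, with a median of 0.48. MALAT1, which resides in nuclear speckles, had 678, 581 and 587 CPM in the WT dasatinib samples, 2372 CPM in WT Dasa, 833, 585 and 787 CPM in the T348I dasatinib samples and 2669 and 2459 CPM in the T348I Dasa samples. All 3 Dasa samples exceeded all 6 dasatinib samples by a wide gap, and the log2 difference was 1.86 ± 0.08 (SE, adjusted p = 3.01e-13). GAS5, a host of small nucleolar RNAs whose own message is degraded during translation, rose by 0.95 ± 0.04 on the log2 scale (SE, adjusted p = 1.24e-12), and SNHG12, another such host, by 1.28 ± 0.07 on the log2 scale (SE, adjusted p = 4.51e-12). RN7SL2, the RNA scaffold of the signal recognition particle, went the other way, with 49.4, 45.7 and 40.5 CPM in the WT dasatinib samples, 21.2 CPM in WT Dasa, 88.1, 40.3 and 52 CPM in the T348I dasatinib samples and 2.03 and 1.81 CPM in the T348I Dasa samples. Its log2 difference of -2.66 ± 0.40 (SE, adjusted p = 1.19e-05) hides unlike genotypes, -1.09 in WT and -4.91 in T348I (interaction adjusted p = 3.84e-08). Without the WT Dasa sample the pooled value was -4.91, and RN7SL2 has near-identical copies, so its count is uncertain.

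Replication histones were lower in Dasa. Of 31 tested, 26 fell and none rose, with a median log2 difference of -1.16, and 15 of them fell in both genotypes. All are at low levels in these polyA libraries. H4C3, a histone H4 gene, had 61, 47 and 64 reads in the WT dasatinib samples, 6 in WT Dasa, 84, 81 and 61 in the T348I dasatinib samples and 17 and 10 in the T348I Dasa samples, a log2 difference of -2.78 ± 0.24 (SE, adjusted p = 6.90e-09). The counts did not overlap. H1-2, a linker histone, went from 8.51, 10.9 and 7.54 CPM to 4.37 CPM in WT and from 10.3, 7.4 and 9.76 CPM to 4.26 and 4.82 CPM in T348I, a log2 difference of -1.0 ± 0.15 (SE, adjusted p = 7.43e-06). H4C2 had 49 reads over the dasatinib samples and 0 over the Dasa samples, at least 8.69-fold lower against a floor of 3 reads over the set. Histone genes are short, and with a length and GC correction the median became -1.77 with 29 lower, and the value of H1-2 alone -1.77. The correction took medians over all genes tested, pseudogenes included. Among protein-coding genes, however, the shortest were themselves more often lower (43.8%) than higher (13.7%). The corrected values are thus no measure of a histone fall free of length, and why the fall deepened was not tested.

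**Figure D4:**
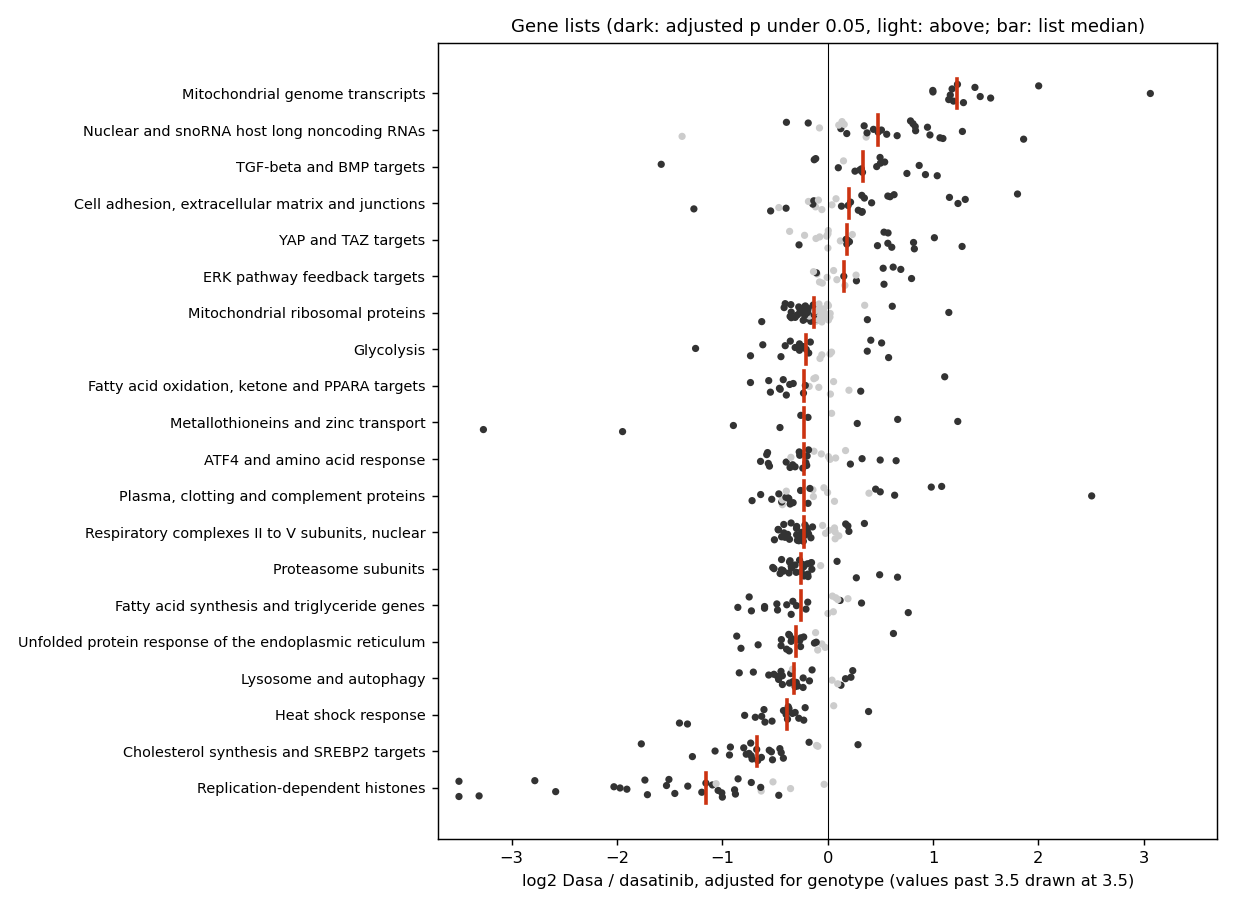
Each point is a tested gene of the list named on the y axis, at its log2 difference of Dasa against dasatinib on the x axis, with the list's median as a bar and values past 3.5 drawn at 3.5. Mitochondrial transcripts lie wholly on the higher side (median 1.23) and histones (-1.16), cholesterol synthesis (-0.67) and heat shock (-0.39) mainly on the lower side.

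Heat shock genes were lower in Dasa in both genotypes. Some of their promoters hold the sequence that HSF1 is known to bind, and promoters are shown first for that reason. The heat shock element was searched on both strands as 3 units (GAA, then TTC, then GAA, each 2 bases apart, or the reverse complement). It occurs in 172 of 35116 RefSeq promoters of 300 bases, 0.49%, and in 6 of the 17 heat shock list genes held in that table: HSPA8, HSP90AA1, HSP90AB1, DNAJA1, HSPD1 and CHORDC1. HSPA1A, HSPA1B and DNAJB1, which are described below, held 0 matches. HSPA6, an inducible HSP70 that is not on the list and fell further than any list member, is shown with HSPA8, the constitutive one. Both are printed from RefSeq on GRCh38.p14, 5′ to 3′ on the gene's strand across the start site, with motif matches in capitals.
HSPA6, chr1:161524290-161524589, plus strand: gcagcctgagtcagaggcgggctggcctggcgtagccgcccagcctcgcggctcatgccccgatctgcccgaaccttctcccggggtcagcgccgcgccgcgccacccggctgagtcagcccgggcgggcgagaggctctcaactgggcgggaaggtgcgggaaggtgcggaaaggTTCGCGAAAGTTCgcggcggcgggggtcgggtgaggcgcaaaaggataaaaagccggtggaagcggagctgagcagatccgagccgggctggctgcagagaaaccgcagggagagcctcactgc
HSPA8, chr11:123062087-123062386, minus strand: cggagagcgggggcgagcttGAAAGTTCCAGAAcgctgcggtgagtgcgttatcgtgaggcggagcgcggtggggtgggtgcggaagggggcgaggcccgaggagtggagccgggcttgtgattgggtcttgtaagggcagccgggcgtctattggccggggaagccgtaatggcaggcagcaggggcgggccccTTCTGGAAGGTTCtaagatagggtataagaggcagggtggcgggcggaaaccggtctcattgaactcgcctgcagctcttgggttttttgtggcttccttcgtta
HSPA6 holds 1 match and HSPA8 holds 2. A match describes the letters in the window and shows no binding.

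HSPA6 (chr1:161524540-161526910) had 7.28, 7.23 and 7.27 CPM in the WT dasatinib samples, 0.452 CPM in WT Dasa, 9.25, 9.53 and 9.32 CPM in the T348I dasatinib samples and 0.338 and 0.377 CPM in the T348I Dasa samples. In reads this was 79 to 148 per dasatinib sample and 5 or 6 per Dasa sample, with a wide gap in both genotypes, and the log2 difference was -4.45 ± 0.20 (SE, adjusted p = 7.95e-13). HSPA1A, a stress-inducible HSP70, had 82.6, 87.5 and 85.6 CPM in the WT dasatinib samples, 38.2 CPM in WT Dasa, 79.6, 77.8 and 85.6 CPM in the T348I dasatinib samples and 30.4 and 28.9 CPM in the T348I Dasa samples, a log2 difference of -1.33 ± 0.06 (SE, adjusted p = 7.72e-13). Its near-identical neighbour HSPA1B fell by 1.41 ± 0.07 on the log2 scale (SE, adjusted p = 5.30e-12). Reads that fit both copies count for neither, so the levels of this pair are uncertain. The pair showed the same separation, with every Dasa sample under every dasatinib sample.

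Of 20 genes on the heat shock list, 18 were lower and 1 higher, with a median log2 difference of -0.39. DNAJB1, the co-chaperone that activates HSP70, went from 141, 137 and 130.5 CPM to 85.1 CPM in WT and from 149.9, 159.6 and 162 CPM to 104 and 103 CPM in T348I, a log2 difference of -0.63 ± 0.04 (SE, adjusted p = 2.81e-10). DNAJA1, another co-chaperone, fell by 0.69 ± 0.04 on the log2 scale (SE, adjusted p = 3.15e-11). HSPA8, chosen after its values were seen, went from 2249, 2270 and 2231 CPM to 1432 CPM in WT and from 2533, 2660 and 2709 CPM to 1840 and 1732 CPM in T348I, a log2 difference of -0.60 ± 0.05 (SE, adjusted p = 1.80e-09). No sample of one set entered the range of the other for these 3 genes within a genotype. HSPE1, the mitochondrial co-chaperonin and the 1 gene of the list that was higher (log2 0.39), has many processed pseudogenes. Their part in its value was not tested. HSF1 itself differed by 0.06 and did not pass.

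Chaperones of the endoplasmic reticulum moved in the same direction. This list reads out the unfolded protein response, which is sensed by ERN1 (IRE1), ATF6 and PERK. Of 22 genes, 17 were lower and 1 higher, with a median log2 difference of -0.30. MANF, a secreted protective factor of the reticulum, had 55.5, 55.1 and 56.8 CPM in the WT dasatinib samples, 31.1 CPM in WT Dasa, 63.2, 61.5 and 60.1 CPM in the T348I dasatinib samples and 35.7 and 31.4 CPM in the T348I Dasa samples, a log2 difference of -0.86 ± 0.05 (SE, adjusted p = 4.49e-11). DNAJB9, a co-chaperone of BiP, fell by 0.82 ± 0.05 on the log2 scale (SE, adjusted p = 7.04e-11), and HERPUD1, which helps clear misfolded proteins, by 0.66 ± 0.04 on the log2 scale (SE, adjusted p = 3.11e-10). The single gene that was higher was the sensor ERN1, from 54, 55 and 52.5 CPM to 85.8 CPM in WT and from 70, 64.2 and 66.5 CPM to 99.8 and 102 CPM in T348I, a log2 difference of 0.62 ± 0.04 (SE, adjusted p = 2.91e-10). The sets did not overlap in any of these 4 genes.

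The proteasome, which degrades tagged proteins, was lower for most of its subunits. Of 31, 26 were lower and 4 higher, with a median log2 difference of -0.25 and a range of -0.52 to 0.66. PSMC2, an ATPase of the cap, went from 225, 225 and 213 CPM to 151 CPM in WT and from 210.4, 217 and 218 CPM to 154 and 153 CPM in T348I, a log2 difference of -0.51 ± 0.04 (SE, adjusted p = 1.27e-09). PSMB1, a subunit of the catalytic core, fell by 0.45 ± 0.04 on the log2 scale (SE, adjusted p = 2.52e-09), or -0.29 with the length and GC correction. The 4 subunits that were higher were PSMA1 (0.27), PSMA2 (0.66), PSMA6 (0.49) and PSMD11 (0.09).

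Metallothioneins, small proteins that bind zinc and copper and are induced through MTF1, fell, while some zinc transporters rose. Of 10 tested genes of the metallothionein and zinc list, 6 were lower and 3 higher, with a median log2 difference of -0.22. MT1G had 85 to 129 reads per dasatinib sample, 6 in WT Dasa and 14 in each T348I Dasa sample, a log2 difference of -3.27 ± 0.19 (SE, adjusted p = 3.03e-11). SLC30A1, which exports zinc and is itself an MTF1 target, went from 97.1, 93.8 and 93.9 CPM to 110.1 CPM in WT and from 95.8, 97.8 and 86.9 CPM to 116 and 118 CPM in T348I, a log2 difference of 0.28 ± 0.04 (SE, adjusted p = 1.83e-05). The MT2A promoter is shown because the MT2A difference depended on genotype. The core of the metal response element was searched on both strands as TGCACNC, found in 12.1% of the 35116 promoters, and as TGCGCNC, found in 20%. Of the 7 list genes in the table, 5 held the first and 2 the second. Matches to either are in capitals.
MT2A, chr16:56608334-56608633, GRCh38.p14, plus strand: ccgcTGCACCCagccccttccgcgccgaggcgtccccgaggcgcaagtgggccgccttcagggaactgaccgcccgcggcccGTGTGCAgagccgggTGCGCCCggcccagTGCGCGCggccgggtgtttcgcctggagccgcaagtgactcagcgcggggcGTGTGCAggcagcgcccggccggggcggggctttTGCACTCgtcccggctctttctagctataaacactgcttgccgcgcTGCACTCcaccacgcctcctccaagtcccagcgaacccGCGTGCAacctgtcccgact
The window holds 8 matches. MT2A, chosen after its values were seen, had 32, 36.8 and 36.3 CPM in the WT dasatinib samples, 6.55 CPM in WT Dasa, 60.3, 59.7 and 69.3 CPM in the T348I dasatinib samples and 48.5 and 39.1 CPM in the T348I Dasa samples. The fall was -2.41 in WT, which rests on the single WT Dasa sample, and -0.52 in T348I, and the pooled log2 difference was -0.90 ± 0.18 (SE, adjusted p = 2.14e-04). Without the WT Dasa sample it was -0.51, and without the genotype term it did not pass (-0.64, adjusted p = 0.31). Among T348I samples alone 3 list members were lower and the list's median was -0.10, against -0.14 in both genotypes without the WT Dasa sample.

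Cholesterol synthesis had the lowest median among the metabolic lists. Of 24 genes that make cholesterol or answer to SREBP2, 21 were lower and 1 higher, with a median log2 difference of -0.67, -0.48 in WT and -0.80 in T348I. INSIG1 (chr7:155297776-155310235), the sterol sensor whose own transcription follows SREBP2, had 402, 409 and 388 CPM in the WT dasatinib samples, 148 CPM in WT Dasa, 257, 285 and 263 CPM in the T348I dasatinib samples and 61.5 and 71.2 CPM in the T348I Dasa samples. Every Dasa sample lay under every dasatinib sample of its genotype and of the other, and the log2 difference was -1.77 ± 0.08 (SE, adjusted p = 1.78e-12). IDI1, an isomerase midway in the pathway, went from 335, 338 and 332 CPM to 167 CPM in WT and from 269, 294 and 272 CPM to 96.4 and 104 CPM in T348I, a log2 difference of -1.28 ± 0.07 (SE, adjusted p = 9.07e-12). DHCR7, which makes the final product, fell by 0.92 ± 0.05 on the log2 scale (SE, adjusted p = 5.62e-12), and FDFT1, which commits carbon to sterols, by 0.93 ± 0.05 on the log2 scale (SE, adjusted p = 1.26e-11). The gap was wide in all 4 genes.

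For several of these genes the fall was deeper in T348I. Within T348I the log2 difference of INSIG1 was -2.02 against -1.43 within WT (interaction adjusted p = 2.31e-06), and that of IDI1 -1.48 against -1.0 (adjusted p = 1.07e-05). Of the 24 genes, 22 had the lower value in T348I, and 10 passed the interaction test, 9 of them with the lower value in T348I, against 6.83% of all genes called in either direction.

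Fatty acid synthesis followed in part. Of 22 genes 13 were lower and 3 higher, with a median log2 difference of -0.25. SCD, the desaturase that makes oleate, had 1730, 1672 and 1736 CPM in the WT dasatinib samples, 1171 CPM in WT Dasa, 1699, 1679 and 1680 CPM in the T348I dasatinib samples and 904 and 983 CPM in the T348I Dasa samples, a log2 difference of -0.72 ± 0.05 (SE, adjusted p = 1.18e-09). FADS1, which desaturates polyunsaturated fatty acids, fell by 0.60 ± 0.04 on the log2 scale (SE, adjusted p = 3.31e-10). ACACB, whose product malonyl-CoA restrains fatty acid entry into mitochondria, went up from 16.3, 15 and 16.3 CPM to 27.3 CPM in WT and from 19.2, 18.8 and 19.8 CPM to 32.1 and 32.9 CPM in T348I, a log2 difference of 0.77 ± 0.06 (SE, adjusted p = 1.94e-09). These 3 genes kept the sets apart in both genotypes. On the fatty acid oxidation list 11 of 20 genes were lower and 2 higher (median -0.22), among them PDK4, which inhibits pyruvate dehydrogenase (-0.73 ± 0.06 (SE, adjusted p = 1.01e-08)), and HADHA, a subunit of the trifunctional protein (-0.45 ± 0.04 (SE, adjusted p = 1.22e-08)).

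Genes of lysosomes, autophagy and glycolysis were lower as well. Of 26 lysosome and autophagy genes 19 were lower and 4 higher, with a median log2 difference of -0.32. MAP1LC3B, whose lipid-linked product coats autophagosomes, had 208, 213 and 211 CPM in the WT dasatinib samples, 128 CPM in WT Dasa, 172, 188 and 178 CPM in the T348I dasatinib samples and 98.7 and 90.6 CPM in the T348I Dasa samples, a log2 difference of -0.84 ± 0.05 (SE, adjusted p = 2.27e-11). ATP6AP1, an accessory subunit of the proton pump, fell by 0.51 ± 0.04 on the log2 scale (SE, adjusted p = 1.75e-09). Of 21 glycolysis genes 13 were lower and 4 higher (median -0.20, or -0.12 without the WT Dasa sample), with PGAM1 at -0.62 ± 0.05 (SE, adjusted p = 1.26e-09) and PGK1 at -0.40 ± 0.04 (SE, adjusted p = 1.08e-07). TXNIP, a glucose-induced arrestin, went from 12.5, 12.9 and 13.7 CPM to 6.17 CPM in WT and from 16.5, 17.2 and 19.6 CPM to 11.2 and 10.5 CPM in T348I, a log2 difference of -0.82 ± 0.09 (SE, adjusted p = 3.97e-07). On the list of ATF4 and amino acid response genes 17 of 28 were lower and 4 higher (median -0.22). PSPH, the last enzyme of serine synthesis, fell by 0.56 ± 0.05 on the log2 scale (SE, adjusted p = 3.06e-09), whereas SLC7A11, the cystine importer, rose by 0.65 ± 0.07 on the log2 scale (SE, adjusted p = 2.62e-07).

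Nuclear genes for mitochondrial proteins were more often lower than higher, unlike the mitochondrial genome. Of 38 nuclear subunits of complex I, 18 were lower and 5 higher (median -0.10), and of 38 subunits of complexes II to V, 27 were lower and 4 higher (median -0.22). ATP5F1B, the catalytic subunit of ATP synthase, had 968, 988 and 989.8 CPM in the WT dasatinib samples, 668 CPM in WT Dasa, 872, 884 and 929.7 CPM in the T348I dasatinib samples and 657 and 684 CPM in the T348I Dasa samples, a log2 difference of -0.47 ± 0.04 (SE, adjusted p = 2.02e-08). ATP5F1A, its partner, fell by 0.47 ± 0.04 on the log2 scale (SE, adjusted p = 2.74e-09), and NDUFA5, a complex I subunit, by 0.59 ± 0.05 on the log2 scale (SE, adjusted p = 7.37e-09). The dasatinib and Dasa samples did not overlap in these genes. Of 57 mitochondrial ribosomal proteins 30 were lower and 3 higher (median -0.13, or -0.08 with the length and GC correction). The shares lower were 47.4% for complex I, 71% for complexes II to V and 52.6% for mitochondrial ribosomal proteins. In the highest group of protein-coding genes by mean level 49.0% were lower. Complex I and the mitochondrial ribosomal proteins lay near that share and do not stand out from it. The machinery that copies and transcribes mitochondrial DNA was divided, with 9 of 23 lower and 7 higher, and POLG2, the accessory subunit of the DNA polymerase, went up from 19.5, 17.6 and 20 CPM to 37.6 CPM in WT and from 18.8, 22.6 and 18.8 CPM to 34.6 and 32.3 CPM in T348I, a log2 difference of 0.83 ± 0.07 (SE, adjusted p = 1.07e-08).

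**Figure D5:**
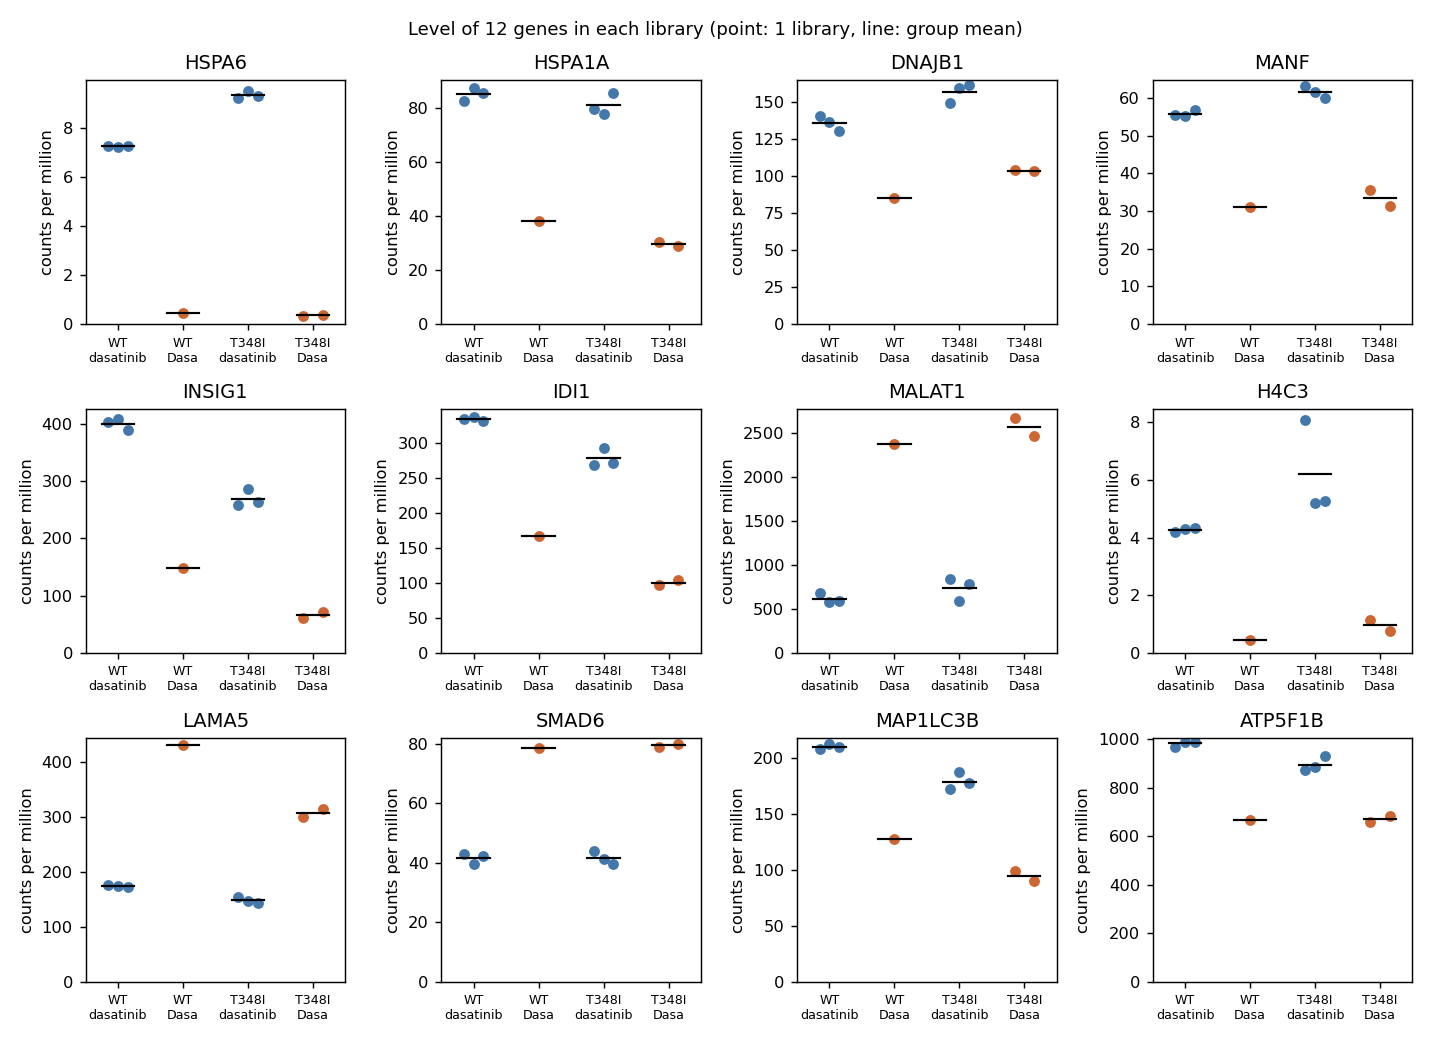
Each panel shows one gene, with CPM per sample on the y axis and the 4 groups on the x axis, one point per library. HSPA6, HSPA1A, DNAJB1, MANF, INSIG1, IDI1, H4C3, MAP1LC3B and ATP5F1B are lower and MALAT1, LAMA5 and SMAD6 higher in the Dasa libraries of both genotypes.

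Targets of TGF-beta and BMP signalling, growth factor pathways that act through SMAD proteins, were mostly higher. Of 17 tested, 13 were higher and 3 lower, with a median log2 difference of 0.33. SMAD6, the inhibitory SMAD that BMP induces, had 43, 39.5 and 42.2 CPM in the WT dasatinib samples, 78.7 CPM in WT Dasa, 43.9, 41.4 and 39.5 CPM in the T348I dasatinib samples and 78.9 and 80 CPM in the T348I Dasa samples. The levels were nearly the same in both genotypes and far apart between the sets, and the log2 difference was 0.93 ± 0.05 (SE, adjusted p = 2.79e-12). TGFBI, an adhesion protein of the matrix, went from 301, 306 and 295 CPM to 422 CPM in WT and from 297, 289 and 302 CPM to 396 and 411 CPM in T348I, a log2 difference of 0.47 ± 0.04 (SE, adjusted p = 1.93e-09), and BAMBI, a decoy receptor, rose by 0.50 ± 0.04 on the log2 scale (SE, adjusted p = 8.02e-09). The 3 that were lower were PMEPA1 (-1.58), TGFB1 (-0.13) and JUNB (-0.11).

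Targets of YAP and TAZ, co-activators that respond to cell shape and density, were higher for 13 of 24 genes and lower for 1 (median 0.18, or 0.29 without the WT Dasa sample). The median was -0.02 within WT and 0.29 within T348I, and 5 genes were higher in both genotypes. F3, tissue factor, had 15, 14.1 and 13.1 CPM in the WT dasatinib samples, 30.2 CPM in WT Dasa, 27.7, 30.6 and 29 CPM in the T348I dasatinib samples and 55 and 59.6 CPM in the T348I Dasa samples, a log2 difference of 1.01 ± 0.06 (SE, adjusted p = 3.42e-11). CCN1, a matrix-associated signalling protein, went from 16.1, 19.8 and 16.2 CPM to 21.5 CPM in WT and from 119.5, 122 and 104 CPM to 204 and 239.8 CPM in T348I, a log2 difference of 0.82 ± 0.08 (SE, adjusted p = 9.11e-08). F3 separated the sets in both genotypes, and the CCN1 difference passed within T348I (0.94) and not within WT (0.32), with an interaction adjusted p of 0.00473. Without the genotype term 4 list members were higher and CCN1 did not pass (1.23, adjusted p = 0.247).

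Feedback targets of the ERK pathway, which growth factor receptors and SRC family kinases feed, were higher for 7 of 17 genes and lower for 1 (median 0.15). The median lay below 0 within WT (-0.10) and above 0 within T348I (0.27), and 4 genes were higher in both genotypes. CCND1, cyclin D1, had 189, 189 and 192 CPM in the WT dasatinib samples, 223 CPM in WT Dasa, 427, 428 and 429.6 CPM in the T348I dasatinib samples and 756 and 765 CPM in the T348I Dasa samples. The Dasa samples were above the dasatinib samples in each genotype, by 0.23 on the log2 scale in WT and 0.83 in T348I (interaction adjusted p = 9.03e-09), and the pooled log2 difference was 0.62 ± 0.07 (SE, adjusted p = 5.35e-07). SPRY4, a feedback inhibitor of receptor signalling, went from 13.1, 11.4 and 12.6 CPM to 17 CPM in WT and from 55.4, 51.6 and 53.2 CPM to 100 and 97.3 CPM in T348I, a log2 difference of 0.80 ± 0.06 (SE, adjusted p = 3.01e-09). This list is the one most dependent on the genotype term: without it 0 genes were higher, with CCND1 at 0.91 (adjusted p = 0.103) and SPRY4 at 1.13 (adjusted p = 0.183). Leaving out single samples moved its median from 0.15 to between 0.08, without T348I Dasa 2, and 0.28, without WT Dasa, and to 0.10 without T348I dasatinib 2.

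Genes of cell adhesion, matrix and junctions were higher for 16 of 28 and lower for 5, with a median log2 difference of 0.21. LAMA5, a laminin chain of basement membranes, had 175, 175 and 173 CPM in the WT dasatinib samples, 430.1 CPM in WT Dasa, 154, 147 and 142 CPM in the T348I dasatinib samples and 299.7 and 315 CPM in the T348I Dasa samples, a log2 difference of 1.16 ± 0.04 (SE, adjusted p = 1.50e-13). ITGB4, the integrin that binds laminin at hemidesmosomes, rose by 1.31 ± 0.08 on the log2 scale (SE, adjusted p = 8.92e-11). Neither gene showed overlap in either genotype. ITGA2, a collagen receptor subunit, had 48.1, 47.5 and 42.3 CPM in the WT dasatinib samples, 88.3 CPM in WT Dasa, 203, 182 and 171 CPM in the T348I dasatinib samples and 477 and 474 CPM in the T348I Dasa samples, a log2 difference of 1.24 ± 0.07 (SE, adjusted p = 6.99e-12), which did not pass without the genotype term (1.59, adjusted p = 0.0633). Its level was several-fold higher in T348I than in WT. TAGLN, an actin-binding protein of contractile cells, rose by 1.36 ± 0.08 on the log2 scale (SE, adjusted p = 2.37e-11). It belongs to a different list, of SRF targets and actin cytoskeleton genes, which was divided, with 9 of 21 higher and 5 lower (median 0.05). COL1A1, a collagen chain and fibroblast marker, went from 2.88, 2.66 and 2.85 CPM to 6.47 CPM in WT and from 5.11, 4.96 and 3.63 CPM to 7.65 and 8.13 CPM in T348I (0.93 ± 0.13 (SE, adjusted p = 7.51e-06)), beside fibroblast markers of which 9 of 12 stayed under 1 CPM. Of the 3 fibroblast and stellate markers tested, 2 were higher and 1 lower, with log2 differences from -1.05 to 1.28, and 1 was higher in both genotypes. Several genes of the adhesion, matrix and junction list are long, and with the length and GC correction 13 of that list were higher with a median of 0.11.

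Hepatocyte genes did not share a direction. Of 28 plasma, clotting and complement proteins tested, 13 were lower and 6 higher with genotype as a term (median -0.22), but the genotypes were unlike. In WT 10 were higher, against 22.2% of all genes, and 5 lower, against 23.2%. In T348I 4 were higher, against 27.8%, and 19 lower, against 27%. The median was 0.11 in WT and -0.45 in T348I. The interaction passed for 18 of the 28, against 6.83% of all genes, and the T348I value was the lower one in all 18. The pooled median was -0.44 without the WT Dasa sample and -0.13 without T348I Dasa 1, and without the genotype term 7 were lower.

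AMBP, the precursor of a plasma protease inhibitor, had 942, 1029 and 993 CPM in the WT dasatinib samples, 748 CPM in WT Dasa, 670.1, 686 and 706 CPM in the T348I dasatinib samples and 347 and 372 CPM in the T348I Dasa samples, a log2 difference of -0.40 in WT and -0.94 in T348I (interaction adjusted p = 3.75e-07). ASS1, a urea cycle enzyme, went from 1566, 1623 and 1606 CPM to 1097 CPM in WT and from 1061, 1073 and 1171 CPM to 510.1 and 529.6 CPM in T348I, with differences of -0.54 and -1.08 (adjusted p = 3.35e-07). APOE, an apolipoprotein, showed -0.26 and -0.72 (adjusted p = 4.84e-06), and its pooled value of -0.53 ± 0.07 (SE, adjusted p = 1.35e-06) did not pass without the genotype term (-0.61, adjusted p = 0.11). All 3 were lower in Dasa in both genotypes and fell further in T348I. Some genes passed with opposite signs: G6PC1, which releases glucose from the liver, was 0.72 in WT and -0.57 in T348I, and F12, a clotting factor, 1.07 and -0.47. Both were chosen after their values were seen, and the WT value rests on 1 Dasa sample.

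Other hepatocyte genes rose. C3, the central complement protein, had 641, 676 and 656 CPM in the WT dasatinib samples, 1048 CPM in WT Dasa, 929, 854 and 909 CPM in the T348I dasatinib samples and 1050 and 1180 CPM in the T348I Dasa samples, a log2 difference of 0.46 ± 0.06 (SE, adjusted p = 1.72e-06). MTTP, which loads lipid onto apolipoprotein B, rose by 0.91 in WT and 0.24 in T348I (interaction adjusted p = 0.00107), 0.55 ± 0.10 (SE, adjusted p = 1.27e-04) in the pooled model, or 0.25 without the WT Dasa sample, and did not pass without the genotype term (0.48, adjusted p = 0.0848). ABCC2, the bile canalicular exporter of conjugates, had 451, 430.0 and 422 CPM in the WT dasatinib samples, 1031 CPM in WT Dasa, 466, 435 and 435 CPM in the T348I dasatinib samples and 895 and 905 CPM in the T348I Dasa samples, a log2 difference of 1.11 ± 0.05 (SE, adjusted p = 2.98e-13), with the sets well apart. CYP1A1, a target of the aryl hydrocarbon receptor, went down from 194, 204 and 188 CPM to 114 CPM in WT and from 124, 132 and 132 CPM to 59.1 and 61.1 CPM in T348I, a log2 difference of -0.96 ± 0.06 (SE, adjusted p = 4.42e-11). NR0B2, the bile acid-induced repressor SHP, went from 7.96, 8.24 and 8.49 CPM to 3.76 CPM in WT and from 7.23, 8.24 and 6.82 CPM to 1.01 and 1.81 CPM in T348I, a log2 difference of -1.81 ± 0.20 (SE, adjusted p = 2.65e-07). ITIH2, a plasma protein that binds hyaluronan, fell by 0.53 ± 0.05 on the log2 scale (SE, adjusted p = 1.80e-08). LYZ, named above, fell by 0.60 ± 0.06 on the log2 scale (SE, adjusted p = 7.89e-08), with -0.36 in WT and -0.76 in T348I.

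Among nuclear protein-coding genes above the level minimum (mean log2 CPM 1) that rose in both genotypes, the largest rises were those of IGFN1, SLC12A3, VEPH1 and F5. IGFN1, a muscle sarcomere protein, had 0.618, 0.733 and 0.543 CPM in the WT dasatinib samples, 5.72 CPM in WT Dasa, 8.19, 5.34 and 6.04 CPM in the T348I dasatinib samples and 59.4 and 49.2 CPM in the T348I Dasa samples, a log2 difference of 3.10 ± 0.11 (SE, adjusted p = 7.19e-14). SLC12A3, the thiazide-sensitive sodium chloride transporter of the kidney, had 8.65, 8.43 and 8.42 CPM in the WT dasatinib samples, 71.6 CPM in WT Dasa, 5.97, 5.28 and 6.65 CPM in the T348I dasatinib samples and 28.9 and 35.5 CPM in the T348I Dasa samples, a log2 difference of 2.78 ± 0.10 (SE, adjusted p = 8.39e-14). Both started from unlike levels in the genotypes and rose several-fold in each. F5, clotting factor V, went from 6 to 22 reads per dasatinib sample to 42 to 84 per Dasa sample, a log2 difference of 2.51 ± 0.21 (SE, adjusted p = 5.54e-09). VEPH1 (2.54 ± 0.19 (SE, adjusted p = 1.60e-09)) and CLMP, an adhesion molecule of tight junctions (1.74 ± 0.11 (SE, adjusted p = 1.08e-10)), were chosen after their values were seen.

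Falls of similar size outside the stress and histone genes included the following. APCDD1, an inhibitor of Wnt signalling at the membrane, went from 14.7, 14.7 and 16.4 CPM to 5.79 CPM in WT and from 10.1, 10.8 and 11.7 CPM to 3.32 and 2.86 CPM in T348I, a log2 difference of -1.62 ± 0.12 (SE, adjusted p = 7.63e-10). LCN2, which captures bacterial siderophores, went from 3.64, 4.3 and 6.04 CPM to 0.828 CPM in WT and from 5.97, 4.76 and 5.27 CPM to 1.49 and 0.753 CPM in T348I, a log2 difference of -2.29 ± 0.24 (SE, adjusted p = 1.04e-07). Both genes were taken by the rule for the largest falls, which requires that the sets do not overlap within either genotype.

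YES1, the gene introduced into these lines, had 363, 346 and 342 CPM in the WT dasatinib samples, 366 CPM in WT Dasa, 606, 583 and 555 CPM in the T348I dasatinib samples and 967 and 1026 CPM in the T348I Dasa samples. In WT the Dasa sample was level with the dasatinib samples (log2 0.06), and in T348I both Dasa samples were higher (0.78, interaction adjusted p = 1.00e-09). The pooled log2 difference, 0.53 ± 0.09 (SE, adjusted p = 3.75e-05), did not pass without the genotype term (0.76, adjusted p = 0.0722). The count does not tell introduced from endogenous YES1, and it is no check of the T348I label, since the base change is not in a count. Among the other SRC family members and regulators, SRC went from 69, 65.4 and 66.5 CPM to 57.5 CPM in WT and from 52.5, 58.6 and 56.1 CPM to 39 and 46.6 CPM in T348I (-0.32 ± 0.06 (SE, adjusted p = 9.36e-05)), LYN fell by 0.27 ± 0.04 on the log2 scale (SE, adjusted p = 1.68e-05) and FRK rose by 0.54 ± 0.07 on the log2 scale (SE, adjusted p = 3.93e-06). Of the 10 tested, YES1 included, 4 were lower and 2 higher. Of 15 other kinases that dasatinib is known to bind, 8 were higher and 2 lower (median 0.27). EGFR, one of them, rose by 0.31 ± 0.04 on the log2 scale (SE, adjusted p = 2.50e-06), or 0.13 with the length and GC correction, and did not pass without the genotype term (0.26, adjusted p = 0.13).

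The splicing list was divided, and the cell division lists had more genes lower than higher. Of 34 spliceosome and SR proteins 10 were higher and 11 lower (median -0.02). SRSF6, an SR protein, had 197, 181 and 188 CPM in the WT dasatinib samples, 281 CPM in WT Dasa, 195, 179.7 and 183 CPM in the T348I dasatinib samples and 277 and 269.5 CPM in the T348I Dasa samples, a log2 difference of 0.56 ± 0.04 (SE, adjusted p = 4.40e-10). SRSF5, an SR protein that is also induced by cold, rose by 0.61 ± 0.04 on the log2 scale (SE, adjusted p = 2.72e-10), and CIRBP, the cold-inducible RNA-binding protein, by 0.47 ± 0.05 on the log2 scale (SE, adjusted p = 2.35e-07). All 3 genes of the cold-inducible list were higher. Of 25 G1/S and replication genes 12 were lower and 2 higher (median -0.11), and of 24 G2/M and mitosis genes 10 were lower and 5 higher (median -0.10). These shares, 48% and 41.7% lower, lie between the 33.8% of all protein-coding genes and the 49.0% of their highest group by level. MKI67, the proliferation antigen, went up from 245, 236 and 231 CPM to 496 CPM in WT and from 353, 292 and 304 CPM to 593 and 612 CPM in T348I, a log2 difference of 0.98 ± 0.05 (SE, adjusted p = 3.61e-12), and CENPF, a kinetochore protein, by 0.75 ± 0.05 on the log2 scale (SE, adjusted p = 8.26e-10). AURKA, the spindle pole kinase, fell by 0.42 ± 0.04 on the log2 scale (SE, adjusted p = 7.18e-08). The rise of MKI67 and CENPF ran against most called genes of the G2/M list. Both have very long messages, and the part of length in their rise was not tested.

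Gene structure moved with the difference. Among 12589 protein-coding genes, split into 4 equal groups by exonic length, the longest had 42.5% higher and 21.1% lower in Dasa, and the shortest 13.7% higher and 43.8% lower. From the lowest to the highest of 4 equal groups by GC content, the share that was higher rose from 18.4% to 33.4%. Of 138 genes with at least 50% of their exons inside those of another gene on the same strand, 52 were higher and 20 lower. After an offset for length and GC, edgeR called 8679 genes, the 13 mitochondrial genes stayed higher (median 1.06), and 23 cholesterol genes (median -0.62) and 17 heat shock genes (median -0.35) were lower. Gene length, GC content and the shares of mitochondrial and multimapped reads thus moved with the spelling, and their part in the other differences was not tested further.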

How the data were processed

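Gene expression was measured by stranded sequencing of polyA RNA in 9 samples (TRIzol and RNeasy extraction, KAPA stranded kit, per the labels' protocols). The deposited values are raw read counts per gene, 1 table per sample, made by the authors on GRCh38. STAR 2.5.1b, Trimmomatic 0.35 and CASAVA 1.8.2 are the tools named in the submitters' processing notes. The annotation release is not given in the sources used here. Column 4 (sense strand) was used. Unmapped, multimapped, featureless and ambiguous reads (22.2% to 29.8% of a library) entered neither library sizes nor tests, so genes with near-identical copies lose reads. Depth was 10381142 to 15799059 gene reads per sample.

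After filterByExpr and TMM scaling, each gene was tested by edgeR 4.0.16 (quasi-likelihood F-test, R 4.3.3) with genotype and spelling as terms, adjusted by the Benjamini-Hochberg method over 15495 genes (threshold 0.05). Log2 differences are Dasa over dasatinib, and CPM uses TMM-adjusted library sizes. A model with 4 groups gave the contrast within each genotype and the interaction. Library shares were tested by exact permutation within genotype. Standard errors come from the log2 difference and its F statistic. The floor of 3 reads covers counting error only, because reads carry no molecular identifiers.

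The comparison, the 53 gene lists and the rule for named genes were chosen with earlier results of these data known. The rule takes the 15 largest differences in each direction among genes called in both genotypes with mean log2 CPM of at least 1 and no overlap, each list's 4 members of smallest p at most, and YES1. Some genes it takes are not reported here. Members named to account for a count of 5 or fewer, and genes said to be so, were chosen after their values were seen. Of 58219 identifiers, 57437 had a symbol in a name table, and 55008 matched GENCODE release 29 with the same version, for which coordinates are given. Promoters are from a RefSeq table on GRCh38.p14.

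On simulated data for this comparison (14897 genes, 50 changed at each fold), 34 were recovered when the fold was 1.2 and 40 when it was 1.5. At a fold of 2 it was 49 and at 4 all 50, with 15 unchanged genes called. The simulation changed 200 genes in all, each with mean log2 CPM of at least 1, and gave genotype no effect. In the data 58.5% of genes were called, so these rates do not give the recovery or the false calls of the comparison itself. Alternatives were other scalings, filters, tools (DESeq2 1.42.0) and models, each sample left out, and, chosen after seeing the data, an offset for exonic length and GC content. Samples with the same number deviated together weakly at most (r = 0.105, 0.0065 and 0.0637 between WT and T348I dasatinib samples). Those with unlike numbers had r from -0.0869 to 0.0360. Numbers were not used to pair samples in the main model, and a fit with them as a block is given below. No 2 samples of a group were duplicates: chi-square per gene between their counts was 1.49 to 3.10, where sampling noise gives about 1.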

Additional observations from a re-analysis of the deposited data

Results flagged for a closer look

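The difference between the spellings was itself unequal in the 2 genotypes for 1059 genes by edgeR's interaction test (adjusted p under 0.05, 3051 genes at an unadjusted p under 0.05). The values below are log2 differences of Dasa against dasatinib in T348I minus those in WT. The WT side of each rests on 1 Dasa sample, and the causes were not tested.

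Lower in T348I than in WT were the sterol and fatty acid genes INSIG1 (-0.59), IDI1 (-0.48) and SCD (-0.29), and the hepatocyte genes AMBP (-0.53), APOE (-0.47), ASS1 (-0.54), MTTP (-0.67) and C3 (-0.36), of which MTTP and C3 rose in both genotypes and rose less in T348I. The nuclear receptor gene NR0B2 (-1.30), CYP1A1 (-0.34), LYZ (-0.40) and the 7SL gene RN7SL2 (-3.82) also had the lower value in T348I. The NR0B2 interaction did not pass without T348I Dasa 1 (-0.92, adjusted p = 0.147).

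Higher in T348I than in WT were YES1 (0.72), CCND1 (0.60), ITGA2 (0.42), SPRY4 (0.44) and MT2A, whose value of 1.90 reflects a fall of -2.41 in WT against -0.52 in T348I. The SPRY4 interaction did not pass in 4 of the 8 fits that leave out 1 sample: without WT dasatinib 1 (0.40, adjusted p = 0.0692), without WT dasatinib 3 (0.43, adjusted p = 0.0609), without T348I dasatinib 2 (0.41, adjusted p = 0.0522) and without T348I Dasa 1 (0.42, adjusted p = 0.0598).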

How the results depend on the processing

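The count of 9058 genes held within 1.5 times under every alternative except a fold minimum of 1.5, which by its construction leaves 1258 genes, 1054 higher and 204 lower (83.8% higher, against 50.6%), and ends the call of 37 of the 96 named genes and moves the count of 19 of the 20 lists examined. Calls numbered 9053 with RLE size factors, 8997 with upper quartile scaling, 7806 with DESeq2, 9575 without a filter, 8821 with a stricter filter, 9016 with mitochondrial genes left out before scaling, 9347 with strand ignored, 8414 in T348I alone and 8679 with the length and GC offset, which was chosen after seeing the data. Leaving out each sample in turn gave 8008 to 8899 calls (4128 to 4544 higher, 3880 to 4403 lower), 4690 to 5475 genes called in both genotypes (2400 to 2739 higher, 2290 to 2736 lower) and 773 to 1056 interactions. The title number entered as a replicate block gave 8042 calls, 4950 in both genotypes and 980 interactions.

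Without the genotype term 6507 genes were called. CCN1, SPRY4, CCND1, ITGA2, APOE, MTTP, YES1, EGFR and MT2A then did not pass, and counts moved for 9 lists: mitochondrial ribosomal proteins (18 lower), metallothioneins (2 lower), fatty acid oxidation (7 lower), ATF4 (11 lower), glycolysis (8 lower), plasma proteins (7 lower), YAP and TAZ (4 higher), ERK (0 higher) and adhesion (9 higher). The genotypes make up unequal parts of the spellings, 1 of 3 against 3 of 6. A stricter filter left fewer histones tested, 15 of them lower. Without a filter the median of fatty acid oxidation was -0.34 and that of metallothioneins -0.36. None of the 96 named genes changed direction where tested, nor did the median of any of the 20 lists, in the 21 alternatives. Library measures could not reach a p under 0.05 once a Dasa sample was left out, and their values are then descriptions. Depth limits HSPA6, H4C3, MTND6P4, MT1G and F5, whose counts are low in at least one set.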

Other observations

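Lists outside the systems described above gave further values, as a description with no test of the list. Of 25 interferon response genes 11 were higher and 6 lower in Dasa, with a median log2 difference of 0.19, against 29.6% and 28.9% of all genes tested by edgeR. The median was -0.18 within WT and 0.23 within T348I, with 2 genes higher and 5 lower in both genotypes. IFIT3, an antiviral RNA-binding protein, differed by 1.35, IFI27 by 1.34, IRF9, a subunit of the interferon-activated factor, by 1.28, and OAS2, an RNA sensor, by 1.17. These 4 were chosen after their values were seen, and the values are pooled over the genotypes. Since only 2 genes of the list were higher in both genotypes, not all 4 were. BST2 (-0.69) lay on the other side, where 5 genes of the list were lower in both genotypes. Acute phase and STAT3 targets were higher for 7 of 14 and lower for 4 (median 0.26), and Wnt targets higher for 6 of 15 and lower for 2 (median 0.23), with APCDD1 (-1.62) below all of them.

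Translation factors were lower for 15 of 27 and higher for 5 (median -0.14), whereas MYC targets and ribosome biogenesis genes were divided, 8 of 25 higher and 6 lower (median 0.03). Of 13 MHC class I presentation genes 5 were lower and 1 higher (median -0.03), and of 16 circadian clock genes 5 were higher and 5 lower (median -0.05). Among immediate early genes 9 of 24 were lower and 7 higher (median -0.08), with EGR3, chosen after its values were seen, at -1.76.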
